A study of Mus musculus with 6 samples.

Results

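The bone morphogenetic protein (BMP) pathway was followed through 10 genes in single cells of mouse lung. The 10 genes were picked by symbol, out of 32285 in the gene table, and each symbol was present once: the ligand genes Bmp2, Bmp4 and Bmp6, the receptor genes Bmpr2 and Acvrl1, the target genes Id1, Id2 and Id3, and the inhibitory SMAD genes Smad6 and Smad7. They were compared between 3 AML libraries, from lungs that acute myeloid leukaemia had infiltrated (genotype Trp53 R172H/Δ, AML 1 to AML 3), and 3 libraries of normal lungs (Control 1 to Control 3). In both groups the lungs were digested with Liberase and DNaseI and the non-haematopoietic niche cells were sorted. Only the AML suspensions then received sorted GFP-positive leukaemia cells, at 20% leukaemia and 80% niche cells. The labels give neither age nor strain, and do not say that each library came from a separate animal, so a p-value below reflects how far the libraries scatter, part of which may be technical.

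BMP ligands bind pairs of type 1 and type 2 receptors at the cell surface. The activated type 1 receptor phosphorylates SMAD1, SMAD5 and SMAD9, which enter the nucleus with SMAD4 and switch on target genes, among them the Id genes and the feedback inhibitors Smad6 and Smad7. In lung vessels the pathway is best known through BMPR2, whose loss-of-function mutations cause heritable pulmonary arterial hypertension in people, and through ACVRL1 (also called ALK1), the endothelial type 1 receptor mutated in a form of hereditary haemorrhagic telangiectasia.

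The files held 28516 cell barcodes, of which 23745 were used after filters on genes, mitochondrial share and doublets. Library totals were 39919904 to 46018544 UMIs (unique molecular identifiers, 1 per captured molecule) in AML and 19060360 to 26789176 UMIs in Control, and the median used cell held 3723 to 4685.5 UMIs in AML and 4794.5 to 8323.5 UMIs in Control. Cells were clustered and named from marker genes, so that a class name below means cells like that type. Classes with at least 20 cells in each of the 6 libraries were tested: general capillary, aerocyte, arterial, venous, pericyte, smooth muscle, alveolar fibroblast, alveolar duct myofibroblast, alveolar type 2 and ciliated. AML 1 stood apart from the other AML libraries. It had 24.3% of its cells in unnamed clusters, against 1.79% in AML 2 and 2.82% in AML 3, with 872 of its cells in an arterial-leaning capillary cluster that was left unnamed. In Control the unnamed share was 13.6%, 20.9% and 32.8%, and 464 cells of Control 3 formed a cluster of their own led by haemoglobin genes. Any pair of libraries shared 1 to 20 barcodes. The sorted niche fraction still held haematopoietic cells, which made up 2.10% to 4.08% of Control cells.

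Levels are given in CPM, the UMIs of the gene per 1000000 UMIs of the class in that library. The chemistry counts 1 tag at the 3′ end of each molecule, so no gene length enters. Over all 10 tested classes, 78 of the 100 gene and class pairs passed the filter on low counts, and 5 of these passed the test (edgeR quasi-likelihood, Benjamini-Hochberg adjusted p below 0.05 over all genes of the class). For comparison, 2.44% of all gene and class pairs were called. Bmp4 and Smad6 fell and Bmp2 rose in general capillary cells, Acvrl1 fell in alveolar fibroblasts, and Id2 fell in ciliated cells. No receptor gene was called in any of the 4 endothelial classes, and no member was called in 7 of the 10 classes. A called change rests on the class as clustered here, and the counts moved with several settings given in the closing section.

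Promoter sequence is shown for the 3 called genes that the promoter table held. Each is 300 bases long, from 250 before to 50 after the start that RefSeq gives (GRCm38.p6), read 5′ to 3′ on the gene's own strand. The outermost start in GENCODE M21 can differ: the Id2 window lies within the GENCODE span of the gene, 25093799 to 25097140 on chromosome 12. Capitals mark GGAGCC or its reverse complement GGCTCC, the palindrome GGCGCC, and the palindrome GTCTAGAC, letters that BMP-activated SMAD complexes and SMAD3 or SMAD4 are known to bind.
Bmp4, chr14:46390620-46390919, minus strand: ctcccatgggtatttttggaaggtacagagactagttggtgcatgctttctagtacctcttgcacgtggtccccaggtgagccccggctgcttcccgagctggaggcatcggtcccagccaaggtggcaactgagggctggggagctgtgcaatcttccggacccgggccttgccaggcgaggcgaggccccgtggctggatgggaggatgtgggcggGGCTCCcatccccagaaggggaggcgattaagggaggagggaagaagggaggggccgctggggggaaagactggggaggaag
Smad6, chr9:64022010-64022309, minus strand: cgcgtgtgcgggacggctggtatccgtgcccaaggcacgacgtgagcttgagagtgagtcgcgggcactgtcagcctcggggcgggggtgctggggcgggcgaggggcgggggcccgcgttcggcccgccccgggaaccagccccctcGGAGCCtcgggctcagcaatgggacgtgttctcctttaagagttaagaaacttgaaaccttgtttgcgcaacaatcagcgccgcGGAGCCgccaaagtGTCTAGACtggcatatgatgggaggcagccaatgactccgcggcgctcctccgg
Id2, chr12:25096043-25096342, minus strand: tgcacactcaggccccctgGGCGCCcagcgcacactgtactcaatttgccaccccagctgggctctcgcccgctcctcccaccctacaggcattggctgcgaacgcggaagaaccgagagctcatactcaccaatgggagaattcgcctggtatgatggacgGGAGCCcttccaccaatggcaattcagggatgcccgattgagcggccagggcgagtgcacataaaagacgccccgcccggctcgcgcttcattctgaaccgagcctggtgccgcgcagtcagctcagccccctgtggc
The Bmp4 window held 1 GGAGCC match, Smad6 held 2 GGAGCC matches and 1 GTCTAGAC, and Id2 held 1 GGAGCC and 1 GGCGCC. Among 32851 promoter windows of this length, 30.9% held GGAGCC, 11.9% held GGCGCC and 0.213% held GTCTAGAC, counting both strands. Of the other members in the table, Id3 held 1 GGAGCC, Bmpr2 held 1 GGCGCC and Bmp6 held none of the 3. These are letter matches, and binding was not measured.

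The 3 ligand genes were each led by a different kind of cell. Bmp4, a ligand of lung mesenchyme and vessels, was highest of all classes in alveolar fibroblasts at 249 ± 85.9 CPM (SD over the 6 libraries). Of the tested classes, arterial cells followed at 106 ± 39.8 CPM, pericytes at 79.1 ± 17.3 CPM, and venous cells, alveolar type 2 cells and alveolar duct myofibroblasts lay within each other's spread at 46.9 ± 23.7, 46.1 ± 13 and 43.9 ± 19.5 CPM. General capillary cells had 13.5 ± 5.61 CPM and aerocytes 1.08 ± 1.07 CPM, so the capillary classes were among the lowest of the tested classes. Bmp6, a ligand that liver endothelium uses to set iron balance, showed a different order: it was highest in general capillary cells at 238 ± 87.6 CPM, then in pericytes at 148 ± 67.6, arterial cells at 111 ± 23.3 and venous cells at 94.3 ± 41.0 CPM. The last 3 lay within each other's spread. Bmp6 was at 41.0 ± 21.8 CPM in aerocytes and below 9 CPM on average in every other tested class. Bmp2 was low throughout. Its highest means were 26.2 ± 9.20 CPM in alveolar type 2 cells, 25 ± 11.5 CPM in alveolar duct myofibroblasts and 18.5 ± 7.67 CPM in smooth muscle, which did not differ beyond their spread, and no UMI of Bmp2 was counted in ciliated cells of any library.

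Both receptor genes were highest in capillary classes. Bmpr2, the type 2 receptor, reached 2177 ± 194 CPM in general capillary cells and 1915 ± 233 CPM in aerocytes, which overlapped. Pericytes at 1637 ± 362, arterial cells at 1368 ± 387 and venous cells at 1349 ± 169 CPM came next and overlapped among themselves. In the other tested classes Bmpr2 lay between 86.9 ± 22.9 CPM in alveolar type 2 cells and 288 ± 181 CPM in alveolar duct myofibroblasts. Acvrl1 led in aerocytes at 1252 ± 316 CPM, followed by general capillary cells at 898 ± 199, venous cells at 642 ± 186, pericytes at 603 ± 215 and arterial cells at 597 ± 96.7 CPM. Alveolar fibroblasts had 110 ± 53.0 CPM and alveolar type 2 cells 8.46 ± 5.37 CPM of Acvrl1. In the pericyte class the summed level of 10 endothelial markers was 6698 to 9778 CPM in AML and 9863 to 10286 CPM in Control, beside 10146 to 11136 CPM in AML and 8498 to 9953 CPM in Control in venous cells. Endothelial RNA and pericyte expression therefore cannot be told apart in the pericyte levels of Bmp6, Bmpr2, Acvrl1 and Smad6. When the cells were clustered anew under another setting, no pericyte class had enough cells in every library to be tested.

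Id1 and Id3, which encode inhibitors of helix-loop-helix transcription factors, and the inhibitory Smads were highest in arterial cells. Id1 averaged 1084 ± 263 CPM there, with venous cells, aerocytes and general capillary cells within its spread at 1043 ± 277, 1031 ± 259 and 907 ± 212 CPM. Id3 averaged 1405 ± 343 CPM in arterial cells and 877 ± 156 to 917 ± 249 CPM in the other 3 endothelial classes. Smad6 was at 470 ± 79.9 CPM in arterial cells, 258 ± 97.1 in general capillary cells, 255 ± 30.4 in aerocytes and 140 ± 29.2 CPM in venous cells, and below 30 CPM on average in every tested class that was neither endothelial nor pericyte. Smad7 was at 542 ± 87.5 CPM in arterial cells, 430 ± 124 in general capillary cells and 402 ± 122 CPM in venous cells. It was spread more widely than Smad6, with 172 ± 63.7 CPM in alveolar duct myofibroblasts and 129 ± 46.1 CPM in alveolar fibroblasts. Id2 did not follow the vessels. It was highest in T or NK lymphocytes at 554 ± 178 CPM, where it is needed for NK cell development, then in neutrophils at 405 ± 146 and smooth muscle at 335 ± 92.3 CPM, and only 61.9 ± 8.44 CPM in general capillary cells.

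**Figure D1:**
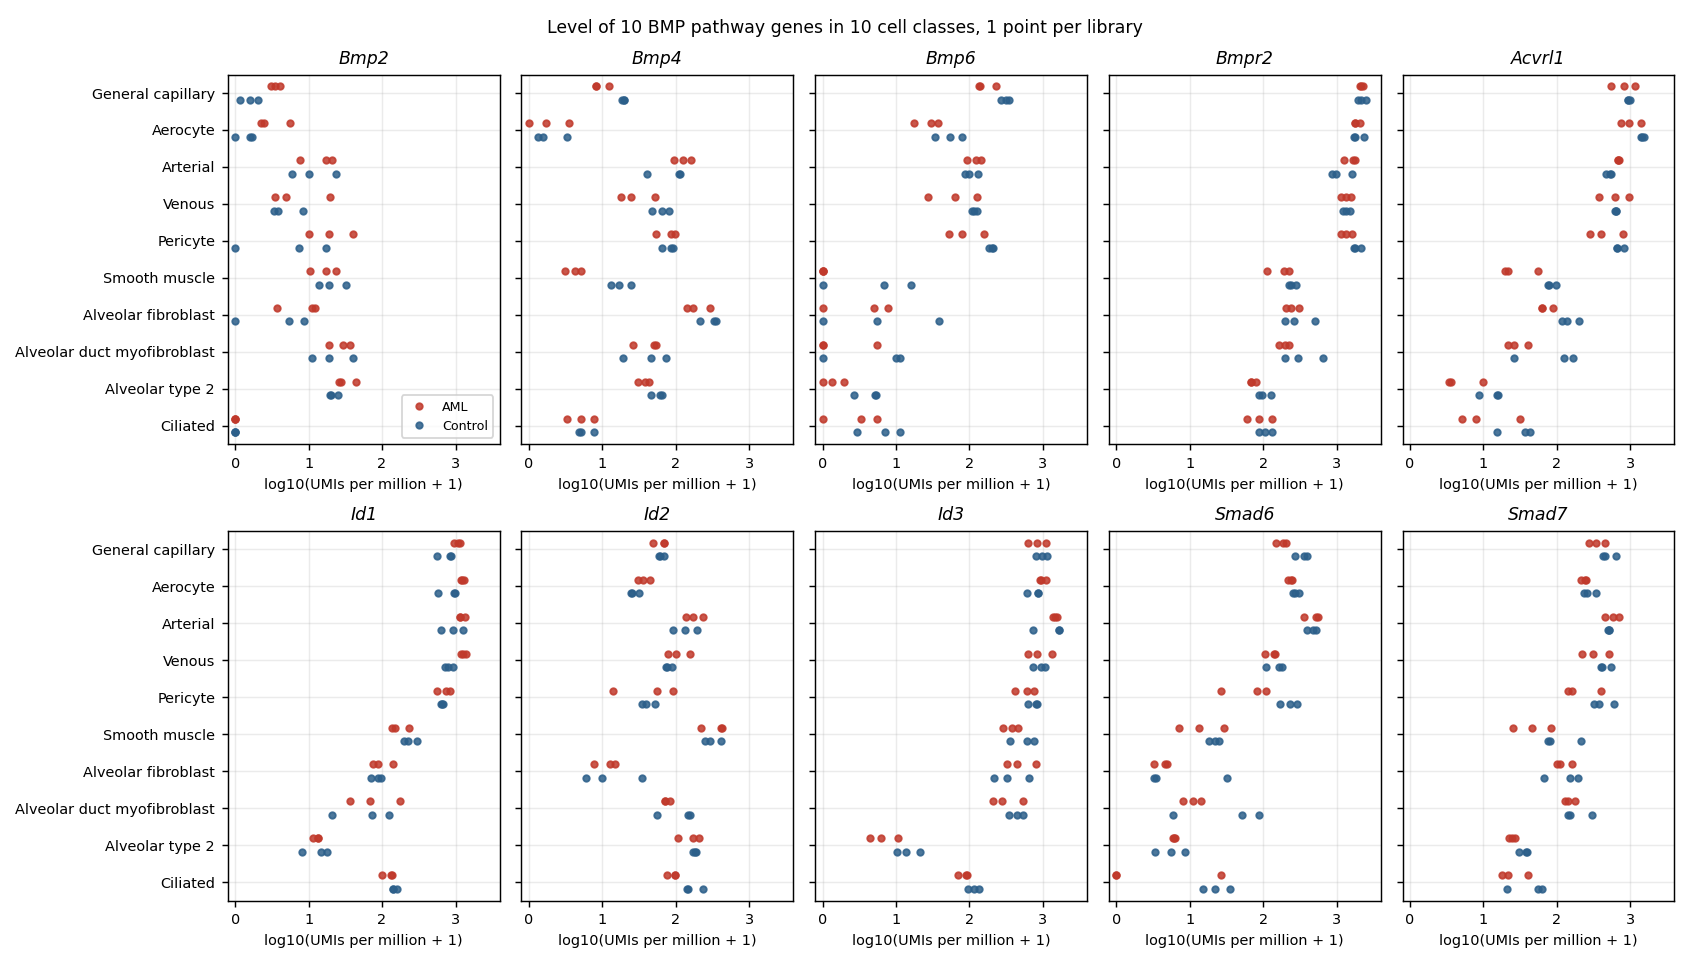
Level of the 10 members in the 10 tested classes, as log10 of CPM plus 1 on the horizontal axis, with 1 red point per AML library above 1 blue point per Control library in each class. Bmpr2, Acvrl1, Id1 and Smad6 are highest in the endothelial classes at the top of each panel, while Bmp4 is highest in alveolar fibroblasts and Id2 in smooth muscle.

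In general capillary cells, the largest class, which can give rise to the gas-exchanging aerocytes, 2 members fell and 1 rose. Bmp4 had 11.2, 7.27 and 7.25 CPM in AML 1, AML 2 and AML 3, against 18.6, 18.9 and 17.8 CPM in Control 1, Control 2 and Control 3. Every AML library lay below every Control library. The log2 change was -1.10 ± 0.21 (SE), a 2.14-fold lower level in AML, with an edgeR adjusted p of 0.0204. Smad6 had 204, 183 and 149 CPM in the AML libraries, against 389, 270 and 355 CPM in the Control libraries. Again the groups did not overlap, and the log2 change was -0.88 ± 0.20, 1.84-fold lower in AML, with an edgeR adjusted p of 0.0315. Among all 11336 genes tested in the class, 5.15% were called (2.06% higher and 3.09% lower in AML) and 32.0% had groups that did not overlap. Of the 10 members, 3 were called and 5 did not overlap.

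Bmp2 was the member that rose, at 3.1, 2.50 and 2.09 CPM in the AML libraries, against 0.155, 0.602 and 1.02 CPM in the Control libraries. These levels rest on 15, 22 and 17 UMIs in AML and 1, 5 and 6 UMIs in Control. The log2 change was 2.11 ± 0.53, 4.33-fold higher in AML, with an edgeR adjusted p of 0.0465. This call did not survive a change in which cells were included: the log2 change was 0.15 (edgeR adjusted p = 0.895) with a stricter mitochondrial limit, and 0.14 (0.913) once the unnamed arterial-leaning cluster joined the class.

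Bmp6 missed the threshold with a change close to that of Smad6. It had 232, 133 and 140 CPM in the AML libraries, against 345, 266 and 313 CPM in the Control libraries, without overlap. The log2 change was -0.84 ± 0.22 with an edgeR adjusted p of 0.053, while DESeq2's Wald test called it (adjusted p = 0.00622). AML 1 was the AML library closest to Control for both ligands. Without AML 1 the log2 change of Bmp6 was -1.10 (edgeR adjusted p = 0.00755), that of Bmp4 -1.28 (0.0042) and that of Smad6 -0.95 (0.0244). With 2 libraries left in 1 group, no member of the class was called without AML 2, AML 3, Control 1 or Control 3. Without Control 2, 1 was called. The share of all genes called in the class moved as well. It was 2.12% without AML 2, 0.412% without AML 3, 0.0342% without Control 1 and 0.604% without Control 3. It was 2.85% without Control 2 and 12.1% without AML 1.

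The receptors and the Id genes of general capillary cells showed no called change. Bmpr2 had 2163, 2263 and 2077 CPM in the AML libraries, against 2508, 2117 and 1936 CPM in the Control libraries, so the AML values lay inside the Control range. Acvrl1 had 1140, 550 and 826 CPM in the AML libraries, against 936, 938 and 998 CPM in the Control libraries. Its AML values fell on both sides of the narrow Control range. Id1 had 944, 1150 and 1091 CPM in the AML libraries, against 556, 836 and 868 CPM in the Control libraries, with every AML library higher. The log2 change of Id1 was 0.53 ± 0.24, with an edgeR adjusted p of 0.191, so it was not called. Id2 averaged 61.3 ± 12 CPM in AML and 62.5 ± 5.68 CPM in Control, Id3 852 ± 238 CPM in AML and 958 ± 166 CPM in Control, and Smad7 353 ± 87.3 CPM in AML and 506 ± 114 CPM in Control (SD, n = 3 each), all with overlapping groups.

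**Figure D2:**
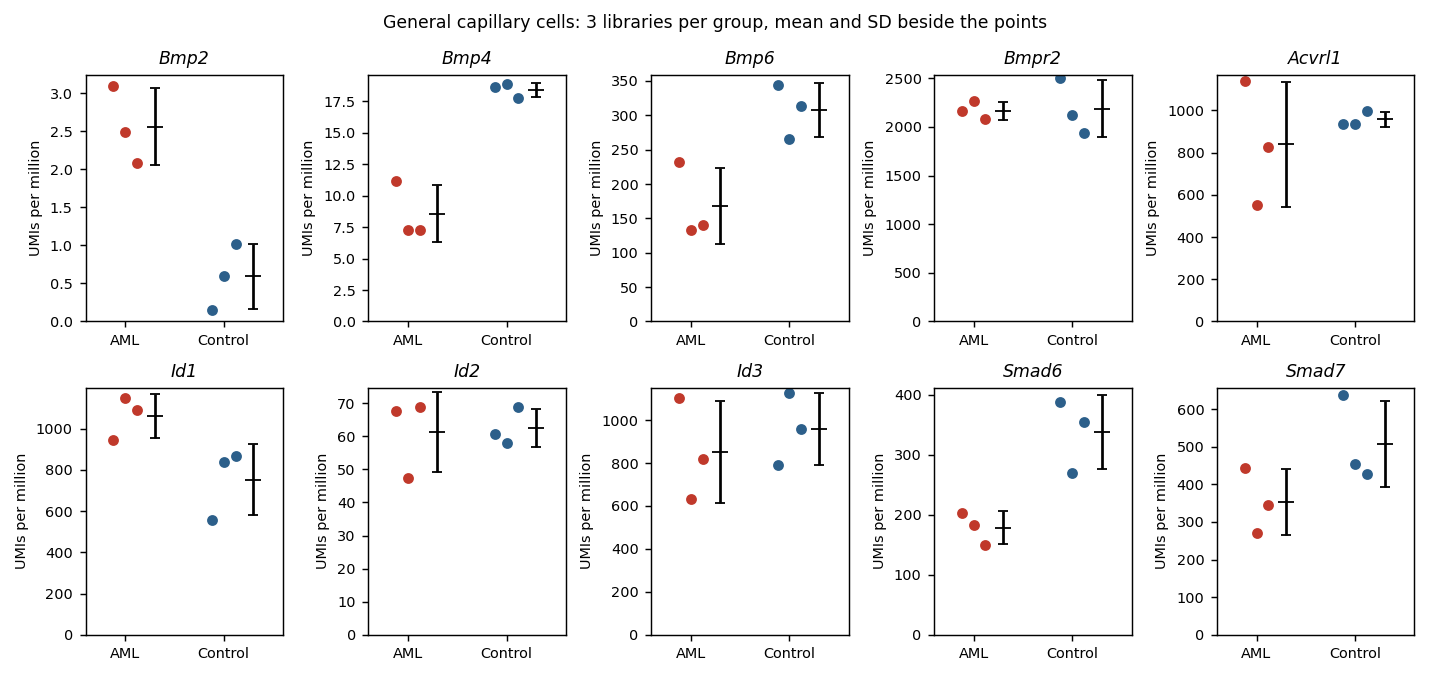
CPM of each member in general capillary cells, with AML libraries left and Control libraries right, 1 point per library, and the mean and SD of 3 libraries in black beside the points. Bmp4, Bmp6 and Smad6 are lower and Bmp2 and Id1 higher in all 3 AML libraries than in any Control library, with Bmp2 never above 3.1 CPM.

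The share of general capillary cells with at least 1 UMI was also lower in AML when every cell was thinned to 2000 UMIs, which sets the depth equal. For Smad6 it was 31.4%, 28.8% and 23.1% in the AML libraries, against 50.5%, 37.3% and 44.2% in the Control libraries. For Bmp6 it was 36.0%, 24.1% and 23.7% in AML, against 45.3%, 40.8% and 44.8% in Control. For Bmp4 the shares were only 2.02%, 1.33% and 1.28% in AML, against 3.82%, 3.66% and 3.59% in Control. In B lymphocytes, which should lack these genes, 0.45% of thinned AML cells and 0% of thinned Control cells had a Smad6 UMI on average. No thinned B lymphocyte had a Bmp4 or Bmp6 UMI, in 160 AML and 86 Control cells, which allows shares of up to 1.88% in AML and 3.49% in Control. The Smad6 and Bmp6 shares of capillary cells stood above these values. The Bmp4 shares lay near the 2 limits, which follow from the number of B lymphocytes and do not measure free RNA. Bmp4 averaged 8.56 ± 2.25 CPM in AML and 18.4 ± 0.563 CPM in Control general capillary cells (SD over 3 libraries). In aerocytes it averaged 1.08 ± 1.30 CPM in AML and 1.08 ± 1.09 CPM in Control. The part of free RNA in the Bmp4 shares was not tested. Thinning left out 1267 AML and 242 Control cells with fewer UMIs; without thinning the mean shares were 39.8% in AML and 69.6% in Control for Smad6, 40.4% in AML and 72.8% in Control for Bmp6, and 2.55% in AML and 9.37% in Control for Bmp4.

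Different clusters supplied the general capillary cells of the groups. Cluster 6, led by Plat, Spry4 and Inhbb, and cluster 4, led by Ankrd37, Mctp1 and Pde4b, held 42.5% and 46.1% of the class in AML and 0.495% and 4.40% in Control. Cluster 10, led by interferon-inducible genes such as Iigp1 and Gbp4, and cluster 3, led by Esm1, Hey1 and Efnb2, held 8.49% and 2.86% in AML and 59.3% and 35.8% in Control. In AML 1, AML 2 and AML 3, Bmp4 was at 1.63, 5.04 and 3.22 CPM in cluster 6 and at 9.87, 22.7 and 9.28 CPM in cluster 4. In Control it was at 21.2, 22.5 and 20.3 CPM in cluster 3 and at 15.1, 17.4 and 16 CPM in cluster 10. Smad6 ran the same way. It had 116, 176 and 101 CPM in cluster 6 of the AML libraries and 218, 239 and 171 CPM in their cluster 4. In the Control libraries it had 445, 410 and 467 CPM in cluster 3 and 320, 201 and 289 CPM in cluster 10.

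When only clusters 3 and 10 were kept, the clusters with at least 10 cells in each library, no member was called. The log2 change was then -0.05 for Bmp4 (edgeR adjusted p = 0.989) and -0.53 for Smad6 (0.371), and that of Bmp6 was -0.37 (0.57). Bmp2 had 1 UMI in those clusters over the 3 AML libraries and could not be tested there. AML 2 and AML 3 held few such cells: 19 and 34 in cluster 10, and 15 and 63 in cluster 3. Within cluster 3, where AML 1 had 96 cells, Bmp4 was not lower in AML: it was at 39.4, 104 and 15.9 CPM on 14, 5 and 3 UMIs in the AML libraries, against 21.2, 22.5 and 20.3 CPM in the Control libraries. Smad6 in cluster 3 was at 323, 435 and 276 CPM in the AML libraries, against 445, 410 and 467 CPM in the Control libraries, with overlap. In cluster 10 Smad6 was at 192, 203 and 112 CPM in AML, against 320, 201 and 289 CPM in Control, again with overlap. In cluster 4 the AML values of Smad6 given above lay below the 434 and 297 CPM of Control 2 and Control 3, on 105 and 37 cells. Bmp6 in cluster 10 was at 242, 231 and 112 CPM in AML, against 341, 250 and 318 CPM in Control, without overlap. In cluster 5, which stayed unnamed, Smad6 was at 200.5, 20.6 and 93.2 CPM in AML, against 224, 214 and 313 CPM in Control, without overlap. These AML values rest on 58, 1 and 9 UMIs, and that of AML 2 lies under its 3-count limit of 61.7 CPM. In cluster 9, also unnamed, Smad6 overlapped, at 201, 222 and 147 CPM in AML, against 333, 214 and 299 CPM in Control. The share of all genes without overlap was not counted for single clusters. Bmp4 in cluster 9 was at 12.8, 0 and 8.88 CPM in AML, against 21.8, 18.0 and 20.3 CPM in Control. The AML values rest on 49, 0 and 2 UMIs, and the 0 in AML 2 allows up to 74.1 CPM, so a difference was not detectable in AML 2. A lower level within each kind of capillary cell and a different mix of kinds cannot be told apart for Bmp4 in these data.

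**Figure D3:**
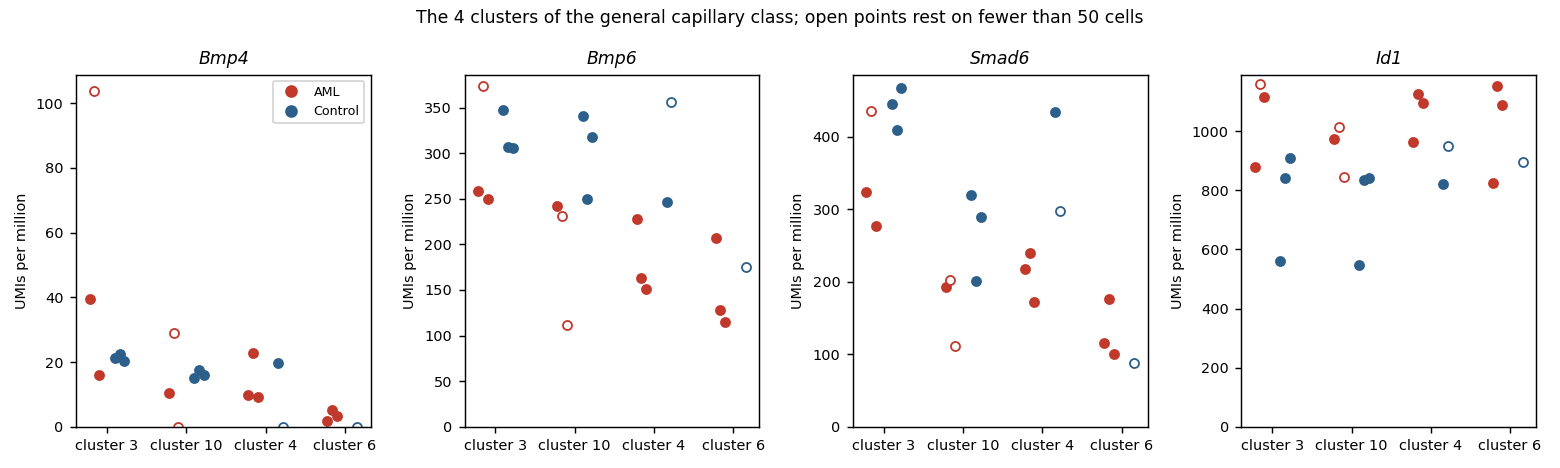
CPM of Bmp4, Bmp6, Smad6 and Id1 in the 4 clusters of the general capillary class, AML libraries in red to the left of Control libraries in blue, with a library shown where it had at least 10 cells of the cluster and open points resting on fewer than 50 cells. In each AML library Smad6 is lowest in cluster 6, which is almost wholly AML, and Control libraries have 410 to 467 CPM of Smad6 in cluster 3, which is mostly Control.

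In arterial cells the AML change of 3 members differed from that in general capillary cells. All 9 members that passed the filter had a log2 change above 0 under all 3 scalings tried. Their median was 0.37, beside 0.0042 over all genes tested in the class. None was called, against 0.309% of those genes. At an unadjusted p below 0.05 none passed either, against 11.7% of all genes, and DESeq2 called none. The summed endothelial markers of the class were also higher in every AML library, at 11842, 13537 and 12184 CPM in AML, against 9663, 9970 and 9799 CPM in Control. Of the 10 markers, 6 had a log2 change above 0 and 4 below, and their part was not tested. Bmp4 had 93.1, 160 and 123 CPM in the AML libraries, against 39.5, 113 and 109 CPM in the Control libraries, with overlap. Acvrl1 had 669, 697 and 679 CPM in AML, against 522, 466 and 549 CPM in Control. It was the arterial member without overlap, beside 18.0% of all genes tested. Smad6 had 356, 554 and 523 CPM in AML, against 469, 394 and 526 CPM in Control. The AML change in arterial cells exceeded that in general capillary cells by 1.71 ± 0.39 (log2, SE) for Bmp4, 1.13 ± 0.27 for Bmp6 and 0.96 ± 0.20 for Smad6, with edgeR adjusted p of 0.0335, 0.0355 and 0.00736 for the interaction, against 1.52% of all genes called. Arterial cells numbered 71 to 96 per AML library and 27 to 59 per Control library.

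In venous cells and aerocytes no member was called, against 0.477% and 3.24% of all genes, and 1 and 4 members did not overlap, beside 19.4% and 22.9% of all genes. At an unadjusted p below 0.05, 2 members passed in each, against 12.2% and 15.5% of all genes, and DESeq2 called none. The highest Id1 values came from AML in both. Venous Id1 was at 1205, 1389 and 1252 CPM in the AML libraries, against 714, 915 and 781 CPM in the Control libraries, a log2 change of 0.73 ± 0.24 with an edgeR adjusted p of 0.221. The summed endothelial markers of venous cells were higher in every AML library as well, with the ranges given above. Of the 10 markers, 5 had a log2 change above 0 and 5 below, and their part was not tested. Aerocyte Id1 was at 1170, 1214 and 1288 CPM in AML, against 573, 975 and 967 CPM in Control, a log2 change of 0.58 ± 0.23 with an edgeR adjusted p of 0.201. Id1 thus had no overlap between groups in 3 of the 4 endothelial classes and did not pass the adjusted threshold in any. Control 1 had the lowest Id1 of all 6 libraries in each of the 4 endothelial classes.

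Venous Bmp4 was at 50.6, 16.7 and 23.7 CPM in the AML libraries, against 47.0, 78.8 and 64.9 CPM in the Control libraries. AML 1 lay inside the Control range, and the log2 change of -0.97 ± 0.33 was not called (edgeR adjusted p = 0.26). Without AML 1 it was -1.52 (0.0118). Aerocyte Bmp6 was at 36.1, 16.4 and 29.3 CPM in AML, against 78.2, 32.6 and 53.7 CPM in Control, with a log2 change of -0.89 ± 0.31 (edgeR adjusted p = 0.147). Smad6 differed between these classes and general capillary cells in its AML change. It had 249, 216 and 237 CPM in AML aerocytes, against 305, 254 and 269 CPM in Control aerocytes. The AML change exceeded that of general capillary cells by 0.71 ± 0.13 in aerocytes (edgeR adjusted p = 0.00105) and 0.74 ± 0.14 in venous cells (0.0057), against 1.88% and 0.69% of all genes called. For Id3 in aerocytes the difference was 0.58 ± 0.12 (0.00646), with Id3 at 1087, 910 and 955 CPM in AML aerocytes, against 615, 848 and 846 CPM in Control aerocytes.

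**Figure D4:**
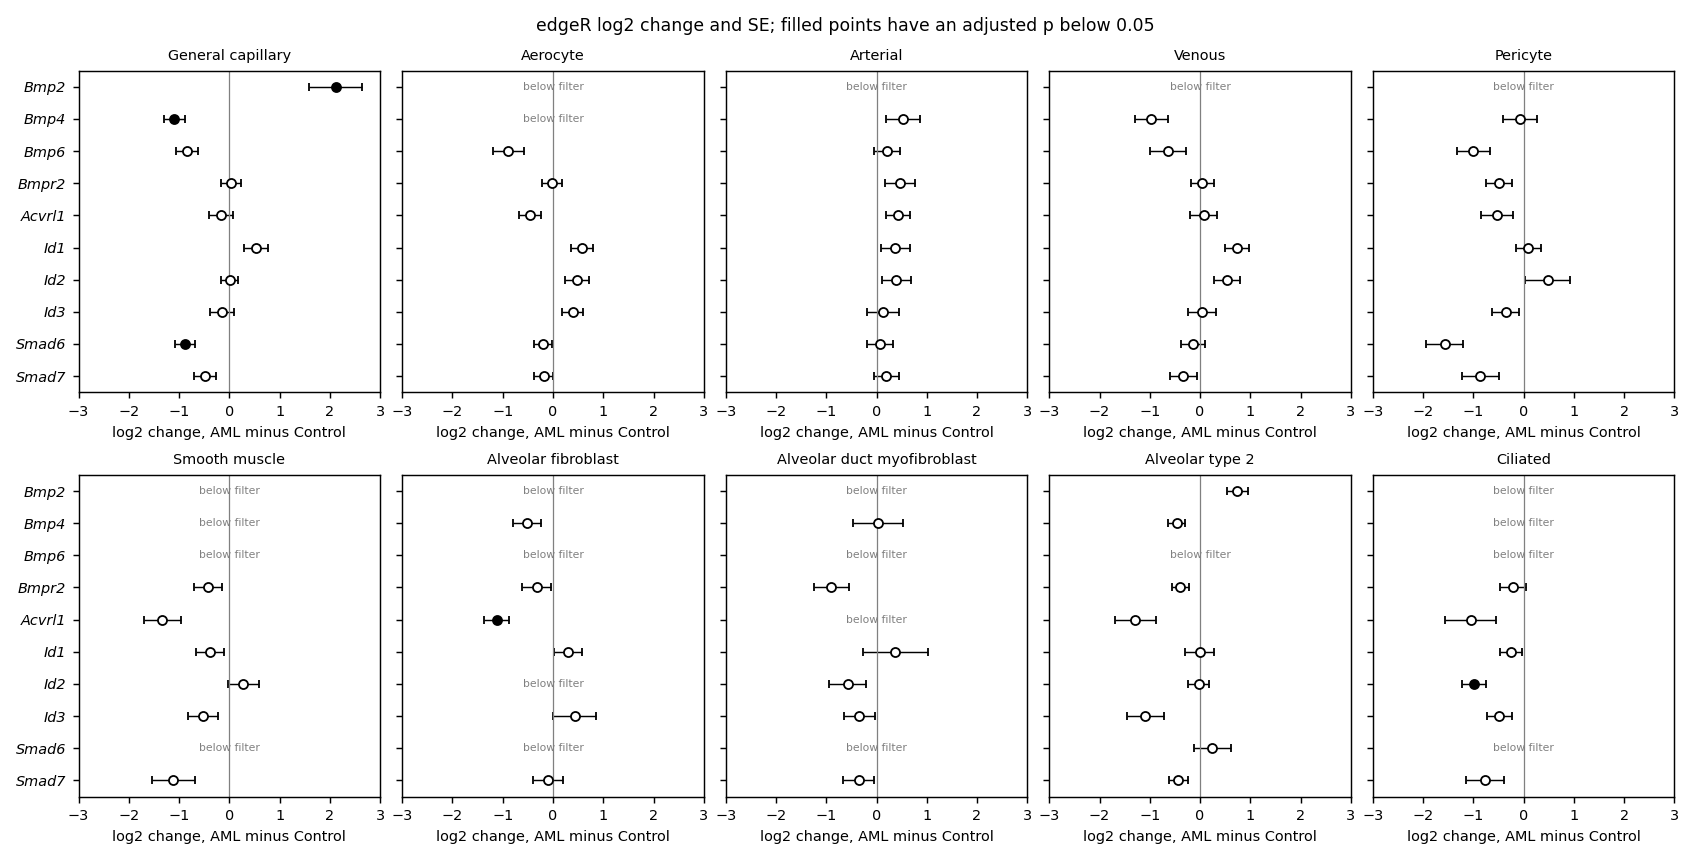
Log2 change, AML minus Control, of the 10 members in each tested class, with SE bars from the edgeR fit, filled points for an adjusted p below 0.05 and the words below filter where a member had too few counts. The 5 filled points are Bmp2, Bmp4 and Smad6 in general capillary cells, Acvrl1 in alveolar fibroblasts and Id2 in ciliated cells. All 9 arterial points lie above 0 and all 6 ciliated points lie below 0.

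In alveolar fibroblasts Acvrl1 fell. It was at 86.5, 61.6 and 61.8 CPM in the AML libraries, against 201, 116 and 135 CPM in the Control libraries. Every AML library was lower, and the log2 change was -1.12 ± 0.25, 2.17-fold lower in AML, with an edgeR adjusted p of 0.0168. The call passed in 12 of 18 alternatives. The edgeR adjusted p was 0.0824 without AML 2, 0.1 without AML 3, 0.0598 without Control 1, 0.0535 without Control 3, 0.0521 at a Leiden resolution of 0.5 and 0.137 with doublets kept. It was the 1 call among 6 members tested and the 1 member without overlap, against 3.65% of all genes called (2.32% lower in AML) and 21.4% without overlap. The summed level of 10 endothelial markers in the class moved with it, at 86.5, 126 and 99.6 CPM in AML, against 1170, 209 and 575 CPM in Control, with none of the 10 at 0, beside a mean Acvrl1 level of 898 CPM in general capillary cells. Its part in the result was not tested. Bmp4, whose level was highest in this class, had 173, 290 and 142 CPM in AML, against 331, 211 and 349 CPM in Control, with overlap and no call. Id3 ranged from 328 to 802 CPM in AML and from 216 to 652 CPM in Control.

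**Figure D5:**
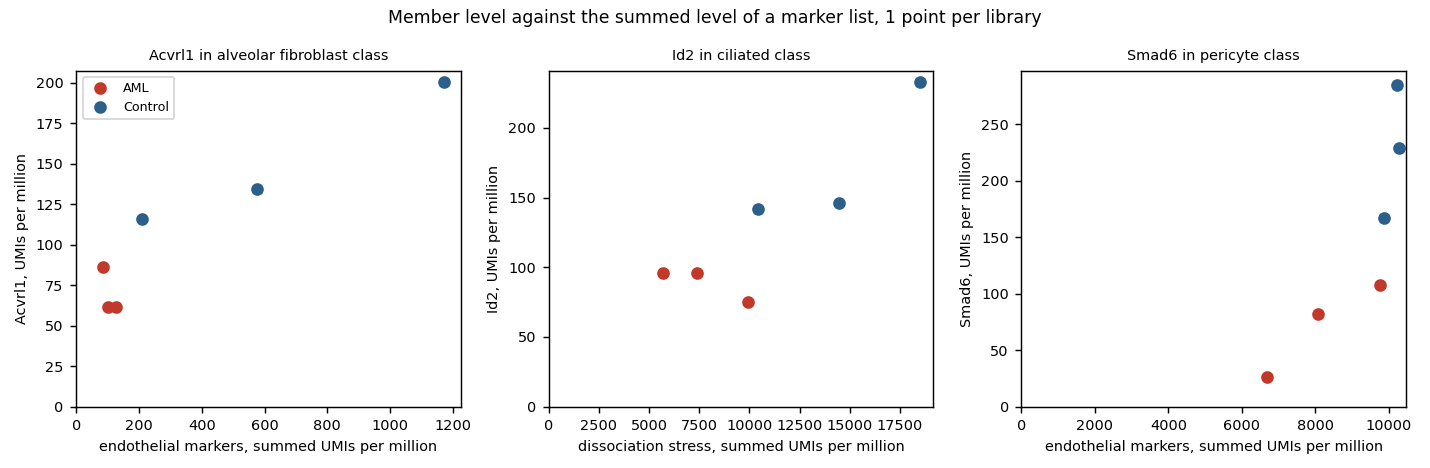
Level of Acvrl1 in alveolar fibroblasts, Id2 in ciliated cells and Smad6 in pericytes on the vertical axes, against the summed level of endothelial markers, dissociation stress genes and endothelial markers on the horizontal axes, all in CPM, with AML libraries in red and Control libraries in blue. In each panel the list is lower in the 3 AML libraries than in the 3 Control libraries, as is the member.

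The other mesenchymal classes and pericytes gave no calls, against 1.58% of all genes in alveolar duct myofibroblasts, 0.786% in smooth muscle and 0.201% in pericytes. At an unadjusted p below 0.05, 1, 2 and 3 members passed in these classes, against 14.9%, 10.9% and 10.8% of all genes; DESeq2 called 1, in pericytes. The number without overlap was 0, 1 and 3, beside 19.6%, 16.1% and 17.1% of all genes. Smooth muscle Acvrl1 was at 54.3, 20.5 and 18.5 CPM in AML, against 76.1, 95 and 75.5 CPM in Control, without overlap, a log2 change of -1.33 ± 0.37 with an edgeR adjusted p of 0.117. Endothelial markers summed to 281, 172 and 119 CPM in AML and to 363, 703 and 507 CPM in Control in that class. Smooth muscle Bmp4 stood on 1 UMI in each AML library and on 12, 10 and 4 UMIs in the Control libraries, too few to pass the filter. Pericyte Smad6 was at 108, 25.9 and 81.7 CPM in AML, against 285, 167 and 229 CPM in Control, with a log2 change of -1.56 ± 0.37 (edgeR adjusted p = 0.0878). Pericyte Bmp6 was at 157, 51.7 and 77.2 CPM in AML, against 211, 186 and 204 CPM in Control, with a log2 change of -1.0 ± 0.33 (0.225). The endothelial markers of the pericyte class were also lower in AML, with the ranges given above, and their part was not tested. In alveolar duct myofibroblasts the Acvrl1 change lay below that of general capillary cells, an interaction of -1.53 ± 0.38 (log2) with an edgeR adjusted p of 0.00455, against 2.03% of all genes called. Acvrl1 there was at 40.0, 20.4 and 25 CPM in AML, against 167, 24.8 and 123 CPM in Control, on 4 to 9 UMIs in AML and 5 to 37 UMIs in Control, with endothelial markers at 56.1 to 120 CPM in AML and 124 to 2100 CPM in Control. No interaction with general capillary cells was called in alveolar fibroblasts, pericytes or smooth muscle by edgeR, against 3.11%, 0.162% and 0.816% of all genes. A missing call does not show that the changes were equal.

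In ciliated cells Id2 fell. It was at 75.2, 95.8 and 95.6 CPM in the AML libraries, against 146, 142 and 233 CPM in the Control libraries, without overlap. The log2 change was -0.99 ± 0.24, 1.99-fold lower in AML, with an edgeR adjusted p of 0.0197, against 0.616% of all genes called in the class and 0.352% called lower in AML. DESeq2's Wald test did not call it (adjusted p = 0.197), and the edgeR adjusted p was 0.0526 without AML 1, 0.112 without AML 3 and 0.317 without Control 3. The AML change lay below that of general capillary cells by an interaction of -1.06 ± 0.26 (edgeR adjusted p = 0.0115, against 1.36% of all genes). The summed level of 20 dissociation stress genes moved with it, at 9953, 7400 and 5704 CPM in AML, against 14469, 10451 and 18519 CPM in Control, and its part was not tested. Ciliated Id1 was at 136, 99.95 and 132 CPM in AML, against 141, 142 and 161 CPM in Control, and Id3 at 68.2, 87.5 and 91.1 CPM in AML, against 114, 93.2 and 132 CPM in Control. Both were lower in every AML library and neither was called, beside 14.8% of all genes without overlap. All 6 members that passed the filter in ciliated cells had a log2 change below 0 under all 3 scalings. Their median was -0.62, beside -0.0051 over all genes tested in the class. This class was small, with 25 to 59 cells per AML library and 23 to 32 per Control library.

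No member was called in alveolar type 2 cells, the surfactant-making cells of the alveolus, against 4.44% of all genes. At an unadjusted p below 0.05, 6 members passed, against 20.5% of all genes, and DESeq2 called none. Bmp2 was at 24.8, 43.9 and 26.2 CPM in the AML libraries, against 24.4, 18.6 and 19.3 CPM in the Control libraries. The lowest AML value exceeded the highest Control value narrowly, and the log2 change of 0.74 ± 0.22 had an edgeR adjusted p of 0.0539. Bmp4 was at 37.1, 29.6 and 41.8 CPM in AML, against 63.2, 45.3 and 59.7 CPM in Control, with a log2 change of -0.47 ± 0.18 (edgeR adjusted p = 0.137). Bmpr2 was at 78.5, 66.4 and 67.1 CPM in AML, against 128, 95.7 and 86.1 CPM in Control, with a log2 change of -0.39 ± 0.17 (0.186). Acvrl1 was at 8.94, 2.63 and 2.41 CPM in AML, against 14.4, 14.6 and 7.80 CPM in Control, and Id3 at 9.60, 3.38 and 5.29 CPM in AML, against 9.33, 20.0 and 12.5 CPM in Control, beside endothelial markers of 107 to 154 CPM in AML and 187 to 268 CPM in Control. Acvrl1 and Id3 levels in this class were far below those of general capillary cells, and free endothelial RNA and expression cannot be told apart there. Of the 9 members measured in this class 4 did not overlap, beside 26.4% of all genes.

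The 54 other genes of the pathway, on 5 lists, gave 206 gene and class pairs that passed the filter. Of these 5 fell, none rose, and 41 had an unadjusted p below 0.05. Over all genes and tested classes, 2.44% of pairs were called (1.45% lower in AML) and 15.9% had an unadjusted p below 0.05, so the called share of the lists was near the background. The values of 4 of the 5 that fell follow, in classes where 3.65% (alveolar fibroblasts), 4.44% (alveolar type 2 cells) and 3.24% (aerocytes) of all genes were called. Tmem100, a BMP9 and ALK1 target of endothelium, fell in alveolar fibroblasts, to 97.8, 28.1 and 79.7 CPM in AML, against 309, 241 and 251 CPM in Control (log2 change -2.01 ± 0.33, edgeR adjusted p = 0.00282). It moved beside Acvrl1 and the endothelial markers of that class. Eng, an endothelial co-receptor for BMP9, fell in alveolar type 2 cells, to 3.64, 3.0 and 2.16 CPM in AML, against 11.1, 9.01 and 5.08 CPM in Control (-1.39 ± 0.36, 0.0348). The endothelial markers of that class, with the ranges given above, were lower in AML as well, and their part was not tested. The ligand-binding modulator gene Twsg1 fell in the same class, to 22.5, 21.4 and 20.2 CPM in AML, against 45.2, 33.2 and 42.0 CPM in Control (-0.76 ± 0.18, 0.0197). Smurf2, a ubiquitin ligase for SMADs and receptors, fell in aerocytes, to 272, 205 and 233 CPM in AML, against 460, 361 and 391 CPM in Control (-0.72 ± 0.19, 0.0496). No gene of these lists was called in general capillary or arterial cells.

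Cells like haematopoietic progenitors or leukaemia held most of the Bmp4 UMIs of the AML libraries, to which leukaemia cells had been added. They numbered 603, 1134 and 1094 in AML 1, AML 2 and AML 3 and 0, 2 and 9 in the Control libraries. They carried 62.7% to 64.1% of all Bmp4 UMIs of an AML library, with 807, 988 and 955 UMIs, while general capillary cells there held 54, 64 and 59. Their median cell held 23398 UMIs, against 3329 UMIs in general capillary cells of AML. Their Bmp4 level was 44.9, 37.7 and 42.0 CPM, above that of general capillary cells in the same libraries. It lay below the AML means of alveolar fibroblasts (202 ± 77.9 CPM), arterial cells (126 ± 33.7 CPM) and pericytes (78.5 ± 23.3 CPM). By mean Bmp4 level over the libraries, the leukaemia-like class ranked 10 among the 19 classes with at least 50 cells. Bmp4 had a UMI in 46% of these cells (exact 95% binomial interval 44.2% to 47.9%, counting error only), at a median of 23398 UMIs per cell. In B lymphocytes of the AML libraries it had a UMI in 0 of 237 cells at a median of 2326 UMIs, which allows a share with a UMI of up to 1.27% (3 cells) and sets no limit on cells expressing the gene below detection. Thinned to 2000 UMIs, the mean share was 7.77% in the leukaemia-like cells and 0% in B lymphocytes.

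Within the leukaemia-like cells Bmp4 differed between clusters. In the dividing cluster led by histone genes and Top2a it was at 54.9, 52.2 and 56.3 CPM in AML 1, AML 2 and AML 3. It was at 39.5, 34.8 and 34.3 CPM in the cluster led by Cpa3, and at 16.7, 18.3 and 29.2 CPM in the cluster led by Cited1. As a class these cells held more Bmpr2 than Bmp4, and the remaining members were lower than Bmp4. Bmpr2 was at 55.3, 51.6 and 62.6 CPM, above Bmp4 in each AML library. Its mean of 56.5 CPM lay far below the 2177 CPM of general capillary cells. Smad7 was at 18.2, 20.2 and 18.1 CPM, and Id1 at 18.4, 20.6 and 12.8 CPM. Id3 averaged 10.3 ± 2.39 CPM (SD over the 3 AML libraries). Bmp2, Bmp6, Acvrl1, Id2 and Smad6 each stayed below 10 CPM in every AML library.

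Over the 19 classes with at least 50 cells, the genes whose mean levels tracked each member most closely were listed by Pearson correlation of log2(CPM + 1), as a description, since the classes share libraries and the endothelial ones share much of their expression. The vessel-enriched members had close partners: Clec14a (r = 0.97), Gpihbp1 (0.966) and Grrp1 (0.965) for Bmp6, Fmo1 (0.987), Tmem100 (0.978) and Il3ra (0.968) for Acvrl1, Jcad (0.964), Sox7 (0.963) and Fmo1 (0.959) for Bmpr2, and Flt1 (0.956), Ace (0.94) and Clec14a (0.936) for Smad6. Id1 was nearest to Pdlim5 (0.921), Clec14a (0.92) and Bvht (0.917), and Id3 to Hoxa5 (0.929), Il17rd (0.928) and Hotairm1 (0.926). Smad7 was nearest to Map3k3 (0.862), Itpr2 (0.838) and 4833403J16Rik (0.836), and Bmp2 to Rerg (0.86), Ror1 (0.805) and Lzts2 (0.789). Bmp4 and Id2 had no partner above 0.79: Snx33 (0.79), Ubtd2 (0.786) and Mbd1 (0.775) came nearest to Bmp4, and Lrrfip1 (0.698), Tes (0.696) and Tmem154 (0.682) to Id2.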

How the data were processed

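The authors deposited unnormalized UMI counts, as 1 gene-by-cell matrix for each of the 6 libraries. Per the file headers they came from cellranger 6.0.1, while the submitters' processing notes name Cell Ranger 7.0.0 and mm10; barcodes had been filtered for cells by the authors. Per the labels' protocols the libraries were made with the 10x 3′ chemistry version 3.1.

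Cells with at least 500 genes and at most 15% mitochondrial UMIs were kept, and Scrublet doublets were removed at an expected 0.8% per 1000 cells, 3.63% of cells, because its automatic threshold marked 0.710%. Cells were clustered with scanpy 1.11.5 (2000 variable genes, 30 components, Leiden resolution 1) and named from marker lists. Clusters led by markers of another class or lineage, or of low UMI count, stayed unnamed. Counts were summed per library and class and fitted with edgeR 4.0.16 in R 4.3.3 (TMM, filterByExpr, robust quasi-likelihood), with Benjamini-Hochberg adjustment over all genes of the class and a threshold of 0.05. Differences between classes were interaction terms with the library as a block, over 88 gene and class pairs. DESeq2 1.42.0 was an alternative. On simulated data with 200 changed genes, 4-fold changes were called for 96.9% to 100% of genes and 2-fold changes for 16.9% to 69.0%, depending on the class. Of the genes called, 1.21% to 7.81% were false. Every simulated gene of a class had the same dispersion, 0.0253 to 0.0539 by class, and no library had its own mix of clusters. The shares of changed genes called may therefore be higher, and the false shares lower, than in the real data.

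All 10 members were described in every tested class, with the other pathway genes that passed the threshold (1 is not reported here) and the 3 genes most like each member in level. The members and lists were chosen with earlier results of these data known. Joining the arterial-leaning cluster, and the alternatives for the interaction terms, were chosen after seeing the data. Other settings tried were scaling, filters, doublet and mitochondrial limits, clustering, equal cells per library, subtraction of free RNA, and leaving out each library.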

Additional observations from a re-analysis of the deposited data

Results flagged for a closer look

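For 9 gene and class pairs of 88, the AML change in a class differed from that in general capillary cells by a test of the difference itself (edgeR interaction term, library as a block, adjusted over all genes). The same test called 1.52% of all genes in arterial cells, 1.88% in aerocytes and 0.69% in venous cells. It called 3.14% in alveolar type 2 cells, 1.36% in ciliated cells and 2.03% in alveolar duct myofibroblasts. In arterial cells the difference, class minus general capillary, was 1.71 for Bmp4, 1.13 for Bmp6 and 0.96 for Smad6 on the log2 scale. It was 0.71 for Smad6 and 0.58 for Id3 in aerocytes, and 0.74 for Smad6 in venous cells. In alveolar type 2 cells it was 1.17 for Smad6 (edgeR adjusted p = 0.0493), on 13 to 21 UMIs in AML and 7 to 21 UMIs in Control. It was -1.06 for Id2 in ciliated cells and -1.53 for Acvrl1 in alveolar duct myofibroblasts.

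Each difference kept its direction under the 8 alternatives tried, 2 other scalings and the omission of each library. The number of those 8 that passed the threshold was 7 for Smad6 and for Id3 in aerocytes, 7 for Smad6 in venous cells, 6 for Smad6 in arterial cells, 6 for Id2, 6 for Acvrl1, 5 for Bmp4, 3 for Bmp6 and 2 for Smad6 in alveolar type 2 cells. All these differences use the same general capillary values, in which different clusters supplied the AML and the Control cells.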

How the results depend on the processing

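The count of 5 called members over all classes was 15 without the low-count filter, 8 with the replicate number as a block, 3 with doublets kept, 3 with a 10% mitochondrial limit, 3 with equal cells per library, 3 with the arterial-leaning cluster joined, 2 with only clusters of 10 cells in each library, and 1 at Leiden resolution 0.5. Leaving out 1 library gave 0 to 16, the most when AML 1 and the fewest when AML 3 was omitted. Calls over all genes also rose in every tested class without AML 1 and fell in every tested class without AML 3. In general capillary cells they went from 584 to 1425 and to 47. Without the low-count filter, 7.90% of 19095 genes were called in that class, and with equal cells per library 4.76%. The count of 3 in general capillary cells was 1 with doublets kept, 1 with the 10% mitochondrial limit, 1 with the cluster joined, 0 at resolution 0.5 and 0 with only the shared clusters, and leaving out 1 library gave 0 to 3. Of all genes in the class, 5.15% were called as tested above, 3.20% with doublets kept and 2.74% with the mitochondrial limit. The share was 2.99% with the cluster joined, 4.14% at resolution 0.5 and 0.614% with only the shared clusters. With 1 library left out it was 0.0342% to 12.1%. The cause of these moves in the member counts was not tested. Some settings left fewer libraries or cells, while others kept more cells or tested more genes. Whether the replicate numbers pair the libraries was not settled. In 3 classes same-numbered libraries correlated at -0.134 to 0.211 in their deviations from the group means, and not every pair was above 0.1. In alveolar type 2 cells all 3 pairs were above 0, at 0.131, 0.018 and 0.211. Deviations from a mean of 3 libraries sum to 0, so such correlations cannot exclude a pairing. With the replicate number as a block, calls over all genes fell from 230 to 166 in alveolar fibroblasts and from 43 to 40 in smooth muscle. They rose in the other tested classes, from 440 to 715 in alveolar type 2 cells and from 584 to 758 in general capillary cells. Among members not called, the direction reversed in alveolar type 2 cells for Bmpr2 (0.40) and Smad7 (0.084) after subtracting 5% of the library profile, and for Id3 (0.060) and Acvrl1 (0.071) with doublets kept. Acvrl1 in ciliated cells reversed with doublets kept (0.32) and with the automatic Scrublet threshold (0.14). Low counts kept 22 of the 100 gene and class pairs out of the test.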
